A study of Mus musculus with 5 samples.

Results

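The transcripts described here encode the enzymes and transporters of glycolysis, lactate export, pyruvate entry into mitochondria and the pentose phosphate pathway. They were chosen by gene symbol as a list of 36 genes, and all 36 were found among the 55276 rows of the deposited table. RNA was measured by sequencing in 5 libraries of sorted cells that the labels call PMN-MDSCs (polymorphonuclear myeloid-derived suppressor cells, immature or activated cells of the neutrophil lineage that restrain T cells). Of these, 3 libraries came from lung (numbers 1, 2 and 3) and 2 from tumor (numbers 2 and 3). All carry the genotype WT, and lung or tumor is the one factor that differs in the labels. The strain, age, tumor model, sort markers and whether the lungs held metastases were not stated in the sources used here. At least 2000000 sorted cells went into each extraction, and the labels state 20000000 paired reads for a library. No label ties a library to an animal of its own, so the replicate error, and with it each p-value, reflects only how these 5 libraries vary, which may be technical. Values are TPM, transcript abundances corrected for length that add up to 1000000 in a library, so levels of different genes may be set side by side, but the read depth behind a value is unknown.

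Glycolysis splits a glucose molecule into pyruvate, which is reduced to lactate and exported or passed into mitochondria. Several steps can be run by several isoenzymes encoded by separate genes, which differ in regulation and in the tissues that use them. The pentose phosphate pathway branches off after the first step and yields NADPH, which neutrophils spend on the oxidative burst and on the repair of oxidised glutathione. Neutrophils have few mitochondria and are known to live mainly by glycolysis, while many tumors also turn most of their glucose into lactate.

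The libraries differ in more than these genes. Of 20 pan-leukocyte genes, 20 were lower in tumor, and their summed TPM came to 17885, 18824 and 17443 in lung against 871 and 2383 in tumor. All 14 neutrophil genes were lower as well, with sums of 52138, 63634 and 37721 TPM in lung and 1165 and 3961 TPM in tumor. Csf3r, the receptor for the granulocyte growth factor G-CSF, was at 1868, 2514 and 2532 TPM in lung but only 40.4 and 195 TPM in tumor. Conversely, 11 of 12 epithelial genes were higher, and their summed TPM grew from 119.96, 58.7 and 59.3 in lung to 6623 and 6654 in tumor, and that of 6 fibroblast genes from 20.2, 21.3 and 14.7 to 1193 and 216. The tumor libraries thus held neutrophil transcripts at low levels beside abundant epithelial ones. In such bulk samples fewer cells of a type and less RNA per cell cannot be told apart, and the part of this make-up in each result below was not tested.

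The 36 genes together took 0.949, 1.08 and 0.8505% of all TPM in the lung libraries and 1.24 and 1.11% in the tumor libraries, so both tumor libraries lay slightly above every lung library. Of the 36 genes, 35 had a mean of at least 1 TPM and were tested (limma on log2(TPM + 1), a call needing a Benjamini-Hochberg adjusted p under 0.05 and at least 1.5-fold on that scale). In tumor 16 were higher and 9 lower, whereas 31.6% of all 16387 tested genes were higher and 27.0% lower, 58.6% in all. The median difference of the 35 genes was 0.49, against 0.018 for all tested genes. Tumor values lay above every lung value for 20 of the 35 genes (39.9% of all tested genes) and below every lung value for 10 (35.7%). Without tumor replicate 2, which leaves 1 tumor library, the median difference of the 35 genes was 0.62, against 0.0056 for all tested genes. When libraries were instead scaled to equal pan-leukocyte transcripts, which moved the median of all tested genes to 3.13, 29 of the 35 genes were higher and 0 lower (limma, with 0 lower also at an unadjusted p under 0.05), and 97.5% of all calls were upward, compared with 53.9% on deposited TPM. That scaling made 11953 of all 16387 tested genes higher and 312 lower. The directions given below are therefore relative to all transcripts of a library. Below, a mean comes with its SD (n = 3 for lung, n = 2 for tumor), a difference is tumor minus lung on the log2(TPM + 1) scale with its SE, and an adjusted p comes from limma. Gene positions are those of GENCODE M21 on GRCm38.

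**Figure D1:**
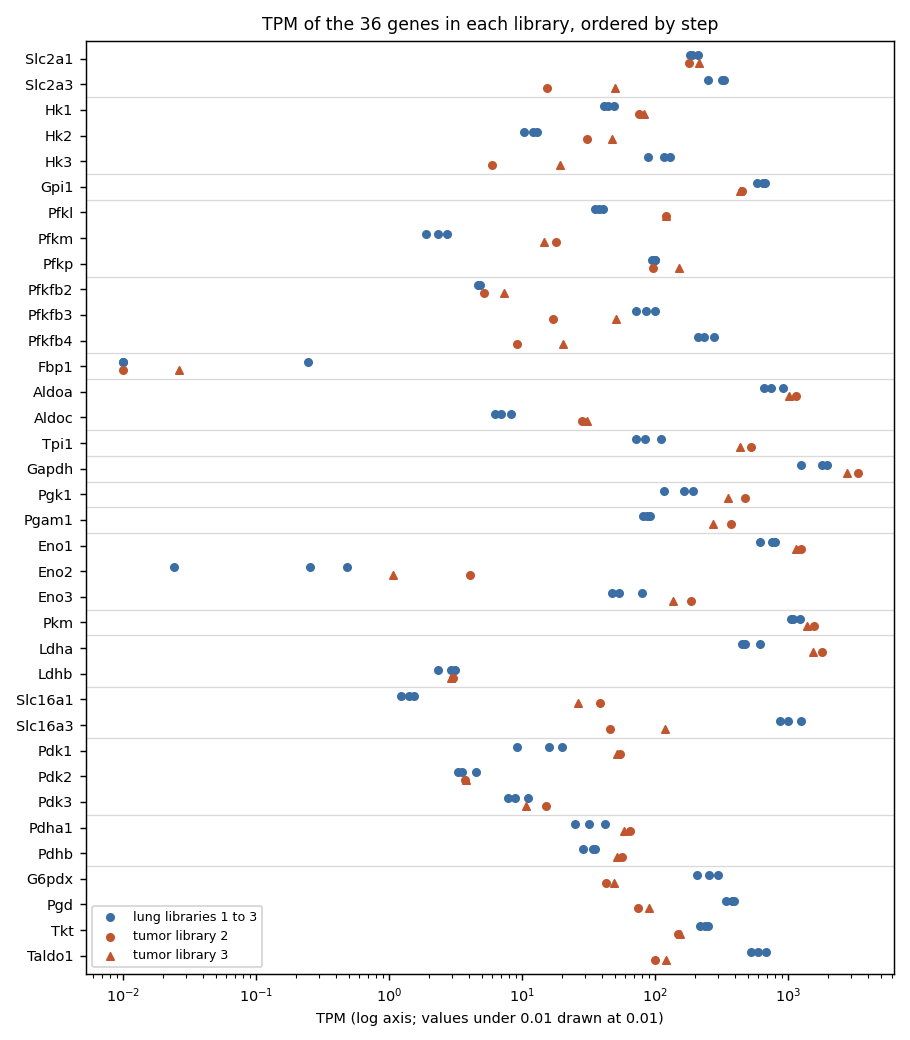
TPM (log axis) of each of the 36 genes in each library, ordered from glucose uptake at the top to the pentose phosphate pathway at the bottom, with blue points for lung, orange circles for tumor 2 and orange triangles for tumor 3. Slc16a1 lies far to the right in tumor, while Slc2a3, Hk3, Pfkfb4, Slc16a3, G6pdx, Pgd and Taldo1 lie far to the left. With libraries scaled to equal pan-leukocyte transcripts none of the 35 tested genes was lower, beside 312 of all 16387 tested genes.

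At 9 steps more than 1 of the listed genes can do the work, and the share of each isoenzyme in the step's summed TPM does not depend on how a library is scaled. The shares of all 23 isoenzymes were fully apart between lung and tumor libraries. TPM values, a different measure, were apart for 30 of the 35 tested genes and for 75.6% of all tested genes. No such rate was taken for shares of other genes. Shares within a step add up to the whole, so they are not independent, and those of a pair of genes mirror each other. An exact permutation test over the 10 splits of 3 against 2 libraries cannot give a two-sided p below 0.1. That was the value for 20 of the 23 shares, and none passed (adjusted p = 0.115 at the lowest, Benjamini-Hochberg over 23). The leading isoenzyme was another one in both tumor libraries than in all 3 lung libraries for glucose transport, hexokinase and the PFKFB regulatory enzymes. It stayed the same in every library for aldolase, enolase, lactate dehydrogenase and the monocarboxylate transporters.

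**Figure D2:**
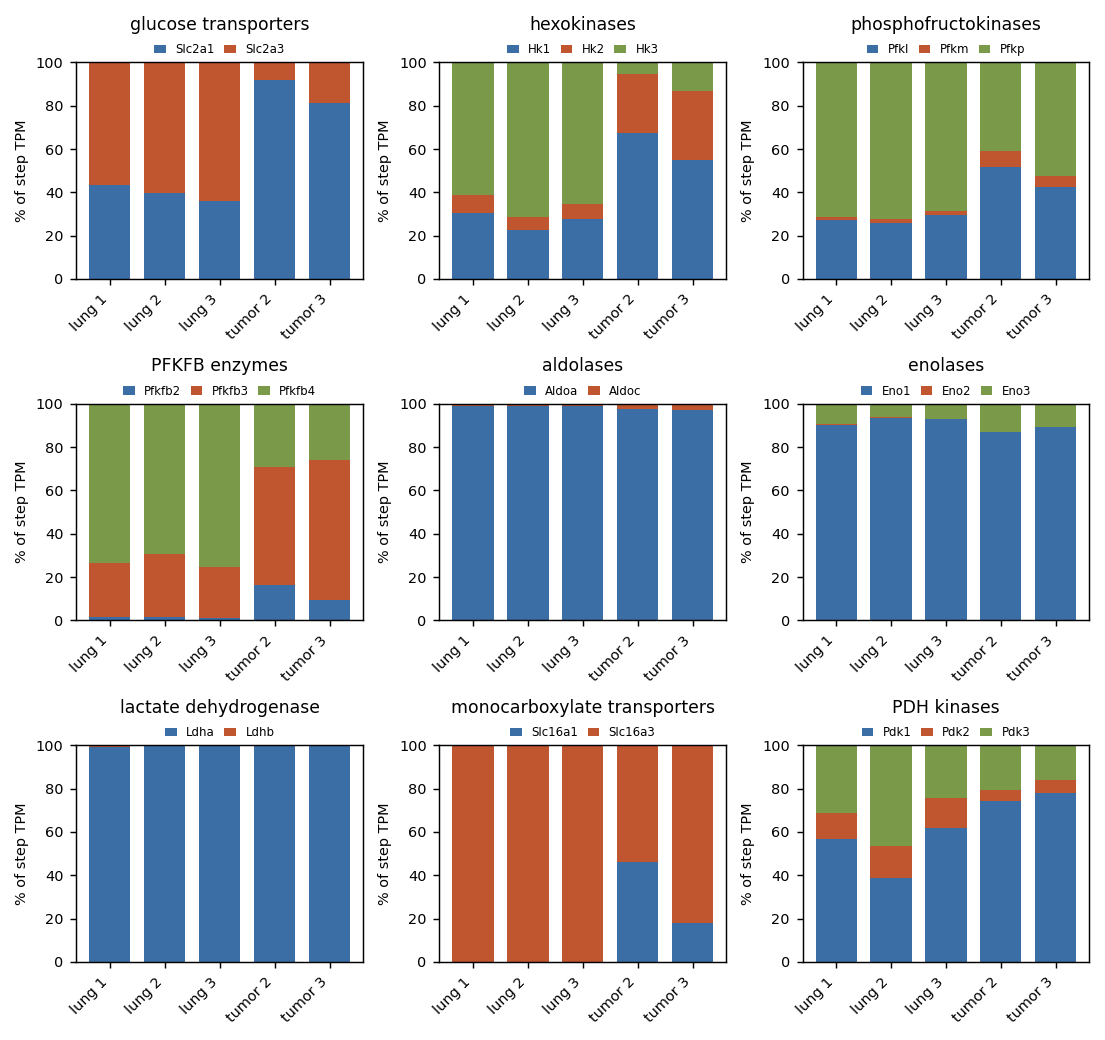
Percent of a step's summed TPM held by each isoenzyme gene in the 3 lung and 2 tumor libraries, for the 9 steps with more than 1 listed gene. Slc2a3, Hk3 and Pfkfb4 lead in every lung library and give way to Slc2a1, Hk1 and Pfkfb3 in both tumor libraries, while Ldha, Aldoa and Eno1 lead everywhere.

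The leading glucose transporter transcript was Slc2a3 in lung and Slc2a1 in tumor. Slc2a3 (chr6:122727809-122801640, minus strand) encodes GLUT3, the high-affinity transporter that neurons and leukocytes use, and stood at 250.2, 320.3 and 328 TPM across the lung libraries, against 15.6 and 50.1 TPM across the tumor libraries. It fell 9.12-fold (-3.36 ± 0.50, adjusted p = 0.00426), a difference that was 0.28 (adjusted p = 0.602) when libraries were scaled to equal pan-leukocyte transcripts. Slc2a1 encodes GLUT1, the widely used basal transporter, and was at 191, 209 and 183 TPM in lung and 180.4 and 216 TPM in tumor, so its groups overlap (difference 0.0210, adjusted p = 0.917). Slc2a3 therefore made up 56.7, 60.5 and 64.1% of the TPM of the pair in lung and 7.94 and 18.9% in tumor, a change of -47.0 percentage points. A further transporter of the same family, Slc2a6, which sits on lysosomes of myeloid cells, was at 128, 148 and 134 TPM in lung and 1.11 and 6.20 TPM in tumor (-5.14 ± 0.53, adjusted p = 0.00179). Counted with the other glucose transporters, Slc2a6 held 21.4% of their TPM in lung and 1.37% in tumor, and the change in the Slc2a3 share then came to -34.2 points.

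Hexokinase, which traps glucose in the cell as glucose-6-phosphate, changed its leading gene from Hk3 to Hk1. Hk3 (chr13:55005985-55021385, minus strand), the isoenzyme of granulocytes and monocytes, was at 88.7, 129.9 and 117 TPM in lung and 5.91 and 19.4 TPM in tumor, 8.83-fold lower (-3.23 ± 0.50, adjusted p = 0.0046), or 0.32 (adjusted p = 0.572) under the pan-leukocyte scaling. Hk1, the housekeeping form bound to mitochondria, rose from 44.6, 41.3 and 49.4 TPM to 75.9 and 82.2 TPM (0.80 ± 0.15, adjusted p = 0.00897). Hk2, the inducible form of muscle, fat and many tumors, rose 3.30-fold from 12.01, 10.4 and 13.0 TPM to 30.7 and 47.4 TPM (1.62 ± 0.24, adjusted p = 0.00427). Both Hk1 and Hk2 lay above every lung value in both tumor libraries, and Hk3 below. Hk3 supplied 61.1, 71.5 and 65.2% of hexokinase TPM in lung and 5.26 and 13.0% in tumor, whereas Hk2 went from 7.09% ± 1.28 to 29.5% ± 3.22. The 3 genes together summed to 145, 182 and 179 TPM in lung and 112 and 149 TPM in tumor, so the exchange of isoenzymes was larger than the change in their total. The Hk1 call ended with the library number as a block (adjusted p = 0.0545).

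Gpi1, the isomerase that makes fructose-6-phosphate, was lower in both tumor libraries (451 and 435 TPM) than in any lung library (588, 674 and 646 TPM), by 1.44-fold. Its difference is under the limit for a call (-0.52 ± 0.14, adjusted p = 0.0296). With median-ratio scaling Gpi1 passed as lower (-0.70, adjusted p = 0.0192). Phosphofructokinase, the committed and most tightly regulated step of glycolysis, moved from Pfkp towards Pfkl. The platelet form Pfkp was at 99.4, 99.5 and 94.7 TPM in lung and 95.9 and 151 TPM in tumor, with tumor 2 inside the lung range and tumor 3 above it (0.29 ± 0.23, adjusted p = 0.308). It passed as higher without tumor replicate 2 (0.62, adjusted p = 0.0274). The liver form Pfkl rose 3.18-fold, from 38.1, 35.5 and 40.9 TPM to 121 and 121 TPM (1.65 ± 0.14, adjusted p = 0.0014), with tumor values that hardly differ from each other. Pfkm, the muscle form, rose 7.02-fold from a low level, 1.91, 2.73 and 2.34 TPM in lung, to 17.9 and 14.7 TPM in tumor (2.38 ± 0.21, adjusted p = 0.00141). The heart and skeletal muscle genes Ckm and Mb reached at most 0.547 TPM in any library, although Tnnt2 on the same list of 7 rose from 0.824, 0.207 and 0.421 TPM to 149 and 116 TPM (adjusted p = 0.000901). Acta1, Actc1, Myh6 and Myh7, also on that list, reached at most 2.63 TPM (Acta1 in lung 2). In tumor 2 Pfkl led the step with 121 TPM and in tumor 3 Pfkp with 151 TPM, so this step had no common leader in tumor. Pfkl held 27.3, 25.8 and 29.7% of phosphofructokinase TPM in lung and 51.6 and 42.3% in tumor, and Pfkp 71.3, 72.2 and 68.7% and 40.8 and 52.5%.

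The PFKFB enzymes make and break fructose-2,6-bisphosphate, the main activator of phosphofructokinase, and their transcripts were much scarcer in tumor. Pfkfb4 (chr9:108991778-109032228, plus strand) was the most abundant of them in lung at 211, 234 and 279 TPM and fell to 9.15 and 20.3 TPM in tumor. That is 16.4-fold lower (-4.03 ± 0.35, adjusted p = 0.00142), the largest fall of the 35 tested genes, and -0.43 (adjusted p = 0.432) under the pan-leukocyte scaling. Pfkfb3, the inducible form with a strong preference for synthesis, was at 72.1, 99.8 and 86.0 TPM in lung and at 17.1 and 51.3 TPM in tumor, below every lung value but with a 3.004-fold gap between the tumor libraries. Its fall of -1.49 ± 0.48 passed narrowly (adjusted p = 0.045). The call ended without any 1 of lung replicates 1, 2 and 3 or tumor replicate 2 (adjusted p from 0.0933 to 0.145). It also ended with the block (adjusted p = 0.118) and with mitochondrially encoded genes removed (adjusted p = 0.0685). With no intensity trend (adjusted p = 0.0523) or no filter (adjusted p = 0.0834) it ended as well. Under the pan-leukocyte scaling the Pfkfb3 difference was 2.13 (adjusted p = 0.00328), beside a median of 3.13 over all tested genes. Pfkfb2, known from heart, was at 4.74, 4.65 and 4.83 TPM and 5.16 and 7.39 TPM (adjusted p = 0.227). As Pfkfb4 fell further than Pfkfb3, Pfkfb3 held 25.1, 29.5 and 23.2% of PFKFB transcripts in lung and 54.4 and 64.9% in tumor. Fbp1, the gluconeogenic phosphatase that reverses the phosphofructokinase step, was listed at 0 in lung 1, lung 2 and tumor 2, and reached only 0.247 TPM in lung 3 and 0.0265 TPM in tumor 3, so it was not tested.

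From aldolase to pyruvate kinase the 10 listed genes were all at higher TPM in both tumor libraries than in any lung library, as were 39.9% of all tested genes, and 7 of the 10 passed the test as higher, beside 31.6% of all tested genes. Their summed TPM was 4827, 5362 and 3902 in lung and 8899 and 7567 in tumor. The steps rose unequally. Tpi1, the triose phosphate isomerase, rose 5.45-fold from 83.8, 111 and 72.2 TPM to 531 and 438 TPM (2.45 ± 0.23, adjusted p = 0.00159). Pgam1, the phosphoglycerate mutase, followed at 3.71-fold, from 92.0, 87.6 and 80.8 TPM to 370.2 and 274 TPM (1.86 ± 0.19, adjusted p = 0.00172). Pgk1, the first ATP-yielding kinase of the pathway, went from 166, 192 and 117 TPM to 473 and 357 TPM (1.40 ± 0.27, adjusted p = 0.00952), a call that ended without tumor replicate 2 (adjusted p = 0.0773). The widely used aldolase Aldoa moved little by comparison, 743, 924 and 656 TPM in lung and 1143 and 1011 TPM in tumor (0.49 ± 0.20, adjusted p = 0.0932), and passed as higher with mitochondrially encoded genes removed (0.62, adjusted p = 0.0468). Tpi1 thus stood at 0.113, 0.120 and 0.110 of the Aldoa level in lung and 0.464 and 0.434 in tumor, a ratio that no scaling of libraries changes. Pkm, which encodes both the M1 and M2 forms of pyruvate kinase by splicing that gene-level values cannot separate, averaged 1121 ± 91.8 and 1482 ± 129 TPM in the 2 tissues, with every tumor value above every lung value (0.40 ± 0.16, adjusted p = 0.0843).

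Gapdh, often used as a reference gene, was itself higher in tumor, where it reached 3339.5 and 2770.5 TPM against 1809, 1958 and 1249.9 TPM in lung (0.89 ± 0.26, adjusted p = 0.0327). Its call was fragile: it ended when any 1 of the 5 libraries was left out (adjusted p from 0.0696 to 0.189), with the block (adjusted p = 0.0774), with no filter (adjusted p = 0.109) and with median-ratio scaling (adjusted p = 0.11). The value of Gapdh is also shared with copies. Annotated pseudogenes with at least 90% identity to Gapdh, 176 in the table, summed to 42.3% of its own TPM in lung and 49.7% in tumor. Gm10359 alone was at 333, 419.8 and 252 TPM in lung and 847 and 635 TPM in tumor. Pgam1-ps2 held 46.4, 42.3 and 54.4 TPM in lung and 177 and 138 TPM in tumor beside Pgam1, and Pgk1-rs7 held 18.3, 19.2 and 27.0 TPM and 51.1 and 58.0 TPM beside Pgk1. How reads were divided among such near-identical transcripts is uncertain, and so are these 3 levels. With all copies found by sequence added to their genes, none of the 35 tested genes changed its direction or its side of the threshold.

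Among the minor isoenzymes of these steps, Aldoc and Eno3 rose and Eno2 did not pass. Aldoc, the brain aldolase, rose 4.11-fold, from 6.30, 8.32 and 6.96 TPM to 28.3 and 30.9 TPM (1.91 ± 0.18, adjusted p = 0.00158), yet Aldoa still held 97.6 and 97.0% of aldolase transcripts in tumor. Eno1, the general enolase, went from 760.2, 801 and 619 TPM to 1253 and 1156 TPM (0.74 ± 0.18, adjusted p = 0.0191). That call ended without lung replicate 1, lung replicate 3, tumor replicate 2 or tumor replicate 3 (adjusted p from 0.0551 to 0.0937), with the block (adjusted p = 0.0813), with no filter (adjusted p = 0.0584) and with median-ratio scaling (adjusted p = 0.0913). Eno3, the muscle enolase, was not rare in either tissue, at 79.9, 53.5 and 47.7 TPM in lung and 186 and 137 TPM in tumor (1.42 ± 0.28, adjusted p = 0.0103), or 7.64% ± 1.68 of enolase TPM in lung and 11.7% ± 1.61 in tumor. With tumor replicate 2 left out Eno3 no longer passed (adjusted p = 0.0827). Eno2, the neuronal enolase, stayed below 5 TPM everywhere, at 0.254, 0.482 and 0.0244 TPM in lung and 4.08 and 1.08 TPM in tumor (1.39 ± 0.49, adjusted p = 0.0583), and passed without tumor replicate 3 (2.03, adjusted p = 0.0152), with no intensity trend (adjusted p = 0.0448) and with mitochondrially encoded genes removed (adjusted p = 0.0484).

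**Figure D3:**
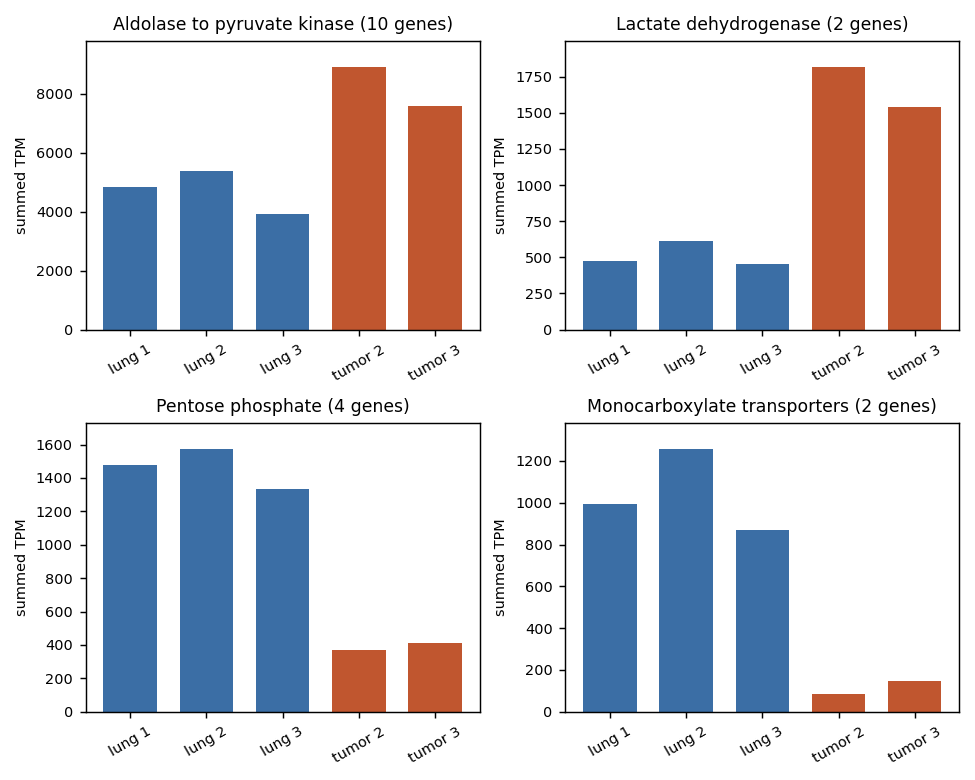
Summed TPM per library (bars from 0; blue lung, orange tumor) of the 10 genes from aldolase to pyruvate kinase, the 2 lactate dehydrogenase genes, the 4 pentose phosphate genes and the 2 monocarboxylate transporter genes. The first 2 sums are higher and the last 2 lower in both tumor libraries on deposited TPM. With libraries scaled to equal pan-leukocyte transcripts the 4 pentose phosphate differences were above 0 and passed for Pgd and Tkt. They lay below the median of all tested genes, 3.13 under that scaling.

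Lactate is made by lactate dehydrogenase and leaves or enters the cell through monocarboxylate transporters. Ldha, the muscle-type subunit that favours lactate formation, rose 3.28-fold, from 473, 613 and 448 TPM in lung to 1814 and 1536 TPM in tumor (1.72 ± 0.20, adjusted p = 0.00239). Ldhb, the heart-type subunit, was nearly absent in both tissues, 3.15, 2.93 and 2.34 TPM and 3.03 and 2.91 TPM, with overlapping groups (0.07 ± 0.21, adjusted p = 0.801). Ldha therefore supplied 99.3, 99.5 and 99.5% of lactate dehydrogenase transcripts in lung and 99.8 and 99.8% in tumor. The transporters moved in opposite directions. Slc16a3 (chr11:120948480-120960868, plus strand) encodes MCT4, the low-affinity exporter of highly glycolytic cells, and in lung it was more abundant than Ldha, at 992, 1255 and 869.6 TPM. In tumor it was at 45.6 and 119 TPM, 12.7-fold lower (-3.78 ± 0.44, adjusted p = 0.00226), and the difference was -0.11 (adjusted p = 0.828) under the pan-leukocyte scaling. Slc16a1 (chr3:104638668-104658462, plus strand) encodes MCT1, a higher-affinity transporter that works in both directions. It rose 23.2-fold, from 1.43, 1.24 and 1.55 TPM to 38.9 and 26.3 TPM (3.78 ± 0.23, adjusted p = 0.000963), the largest rise of the 35 genes. A lung library held 695, 1016 and 561.8 Slc16a3 transcripts for each one of Slc16a1, and a tumor library 1.17 and 4.50. Slc16a3 still led in tumor with 54.0 and 81.8% of the pair, and the fall of its share of -32.0 points was -18.0 without tumor replicate 2 and -45.9 without tumor replicate 3. Bsg encodes basigin, the chaperone both transporters need at the membrane, and rose from 91.6, 86.7 and 71.7 TPM to 515 and 499 TPM (2.60 ± 0.17, adjusted p = 0.00101), while Emb, which encodes its relative embigin, fell from 127, 133 and 137 TPM to 27.7 and 33.1 TPM (-2.09 ± 0.15, adjusted p = 0.00114).

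Sequences before a transcript start of these genes are shown because Slc16a1 and Ldha moved opposite to Slc16a3 and Pfkfb4, although all 4 are known as genes that respond to low oxygen or to growth signals. Each is the 250 bases before a RefSeq transcript start on GRCm38.p6, on the gene's own plus strand, at chr3:104638414-104638663 for Slc16a1, chr11:120948817-120949066 for Slc16a3, chr7:46845554-46845803 for the first of 2 listed starts of Ldha and chr9:108991652-108991901 for Pfkfb4. By the GENCODE M21 positions only the Slc16a1 window lies wholly before its gene. The Slc16a3 and Ldha windows lie inside the gene, and the Pfkfb4 window runs past the gene's start. Capitals mark ACGTG or GCGTG on either strand, the core letters of the hypoxia response element, of which ACGTG overlaps the E-box CACGTG.
Slc16a1: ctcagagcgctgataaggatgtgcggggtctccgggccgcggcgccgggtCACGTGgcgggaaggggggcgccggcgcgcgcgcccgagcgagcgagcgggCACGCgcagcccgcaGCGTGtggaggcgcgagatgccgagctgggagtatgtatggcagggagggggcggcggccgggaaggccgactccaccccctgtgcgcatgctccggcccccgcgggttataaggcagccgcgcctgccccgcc
Slc16a3: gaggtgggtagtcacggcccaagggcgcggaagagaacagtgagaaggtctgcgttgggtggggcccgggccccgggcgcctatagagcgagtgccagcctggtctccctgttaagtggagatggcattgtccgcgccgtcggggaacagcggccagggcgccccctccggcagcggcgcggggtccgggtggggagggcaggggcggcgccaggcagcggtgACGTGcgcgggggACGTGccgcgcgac
Ldha: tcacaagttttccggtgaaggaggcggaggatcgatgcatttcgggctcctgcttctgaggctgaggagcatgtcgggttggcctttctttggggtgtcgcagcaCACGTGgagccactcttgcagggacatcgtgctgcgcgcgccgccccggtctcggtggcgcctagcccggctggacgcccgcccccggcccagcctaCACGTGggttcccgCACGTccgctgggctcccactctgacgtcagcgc
Pfkfb4: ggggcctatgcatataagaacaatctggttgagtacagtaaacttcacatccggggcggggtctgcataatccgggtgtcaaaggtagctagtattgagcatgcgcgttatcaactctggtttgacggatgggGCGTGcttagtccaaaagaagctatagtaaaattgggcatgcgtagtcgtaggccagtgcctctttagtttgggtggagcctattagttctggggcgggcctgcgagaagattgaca
The cores occurred 4 times in the Slc16a1 window, 2 times in that of Slc16a3, 5 times in that of Ldha and 1 time in that of Pfkfb4, counting both strands and overlaps. CACGTG occurred 2 times in the Ldha window and 1 time in the Slc16a1 window, and 0 times in the other 2 windows. Of the 36 genes 35 had at least 1 promoter in the table, all but Slc2a3. At least 1 core was found in 41 of their 52 promoters, and in 38.6% of all 32851 promoters cut to the same length. By gene, with a core in any of its promoters counted, 31 of the 35 genes had at least 1. Among them were 15 of the 16 higher genes and 8 of the 8 lower genes with a promoter. Genes with several promoters raise such counts, and no share by gene was taken over all genes. The counts by gene therefore cannot be set beside the 38.6% of promoters.

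Pyruvate entry into mitochondria was described by the dehydrogenase subunits and the kinases that switch them off. Pdk1, a kinase induced by low oxygen, rose 3.53-fold from 15.998, 9.17 and 20.0 TPM to 54.4 and 52.0 TPM (1.82 ± 0.34, adjusted p = 0.00821), but did not pass with tumor replicate 2 left out (adjusted p = 0.0749) or with tumor replicate 3 left out (adjusted p = 0.0606). Pdk2, the most widespread kinase, averaged 3.80 ± 0.645 and 3.75 ± 0.0637 TPM (adjusted p = 0.984). Pdk3 averaged 9.25 ± 1.62 and 12.9 ± 3.09 TPM (adjusted p = 0.168), and the groups overlap for both. Pdk1 held 56.8, 38.6 and 61.7% of the transcripts of the 3 kinases in lung, where Pdk3 led in replicate 2, and 74.3 and 78.2% in tumor. The target enzyme was also higher: Pdha1, its E1 alpha subunit, went from 42.0, 24.8 and 31.7 TPM to 65.4 and 58.9 TPM (0.93 ± 0.25, adjusted p = 0.0272) and Pdhb, its E1 beta subunit, from 35.6, 28.6 and 34.3 TPM to 56.9 and 51.9 TPM (0.72 ± 0.17, adjusted p = 0.0169). Pdhb did not pass with tumor replicate 2 left out (adjusted p = 0.0748), with the block (adjusted p = 0.0746) or with median-ratio scaling (0.54, under 1.5-fold), and the Pdha1 call ended without lung replicate 2, lung replicate 3 or either tumor replicate (adjusted p from 0.0508 to 0.147). Ldha stood at 11.3, 24.7 and 14.1 times the Pdha1 level in lung and 27.7 and 26.1 times in tumor.

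All 4 pentose phosphate genes fell on deposited TPM. Under the pan-leukocyte scaling each difference was above 0 (1.24 for G6pdx, 1.52 for Pgd, 3.06 for Tkt and 1.24 for Taldo1, with calls for Pgd and Tkt only). Each also lay below the median of all tested genes under that scaling, 3.13, where 11953 of all 16387 were called higher. G6pdx (chrX:74409483-74429194, minus strand), the glucose-6-phosphate dehydrogenase that commits glucose to the pathway and makes its first NADPH, was at 255, 300.2 and 207 TPM in lung and 42.8 and 49.5 TPM in tumor, 5.50-fold lower (-2.42 ± 0.21, adjusted p = 0.0014). Pgd, the second NADPH-forming dehydrogenase, was 4.48-fold lower, 391, 340.04 and 379 TPM in lung and 75.1 and 90.3 TPM in tumor (-2.15 ± 0.16, adjusted p = 0.00118). Taldo1 (chr7:141392199-141402968, plus strand), the transaldolase of the non-oxidative branch, was the most abundant of the 4 in lung at 597, 682 and 529 TPM and fell to 99.6 and 121 TPM (-2.44 ± 0.18, adjusted p = 0.00119). Tkt, the transketolase that returns sugars to glycolysis, fell least, from 237, 250.5 and 216 TPM to 150.0 and 154 TPM (-0.62 ± 0.14, adjusted p = 0.016), so that it led the 4 in tumor. The Tkt call ended without lung replicate 2 and with mitochondrially encoded genes removed, where the fall was under 1.5-fold (-0.57 and -0.49), and with the block (adjusted p = 0.094). Pentose phosphate transcripts made up 23.5, 22.7 and 25.4% of the summed TPM of these 4 genes and the 10 genes from aldolase to pyruvate kinase in lung, and 3.97 and 5.19% in tumor, a share that no scaling of libraries changes. Of the other pentose phosphate genes on a list, Pgls, the lactonase between G6pdx and Pgd, went the other way, from 30.4, 23.3 and 21.7 TPM to 86.9 and 68.6 TPM (1.60 ± 0.22, adjusted p = 0.00334), and Rpe, Rpia and H6pd did not pass.

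**Figure D4:**
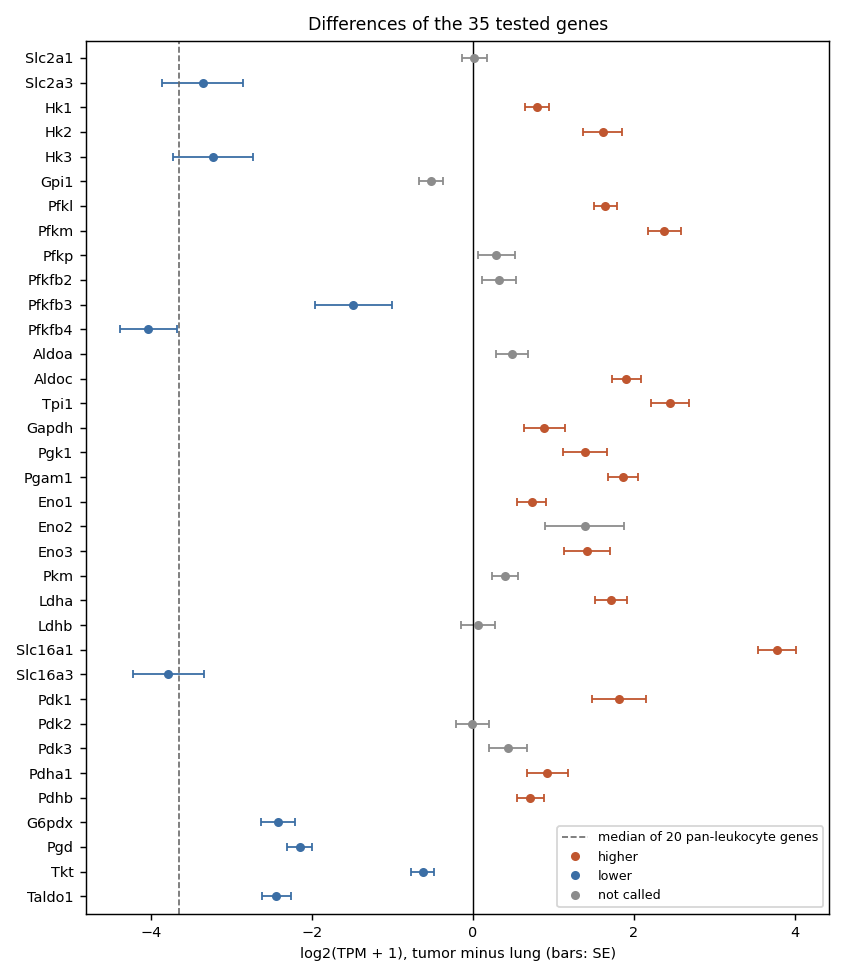
Difference in log2(TPM + 1), tumor minus lung, of the 35 tested genes with SE bars, in pathway order, coloured by call; the dashed line is the median of 20 pan-leukocyte genes at -3.65. Slc2a3, Hk3, Pfkfb4 and Slc16a3 lie near that line, the pentose phosphate genes lie between it and 0, and genes from Hk1 to Ldha other than these lie mostly above 0.

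The 9 genes that fell lay at different places when set beside leukocyte transcripts. The 20 pan-leukocyte genes had differences from -4.56 to -2.24, with a median of -3.65. Slc2a3, Hk3, Pfkfb4 and Slc16a3 lay inside that range at -3.36, -3.23, -4.03 and -3.78. G6pdx and Taldo1 lay near its upper end (-2.42 and -2.44), and Pgd, Pfkfb3 and Tkt above it. The 14 neutrophil genes had a lower median, -4.63 (from -6.39 to -1.90), and all 9 genes lay above that median. Per Ptprc transcript (Ptprc encodes CD45, carried by all leukocytes, 842, 926 and 959 TPM in lung and 18.5 and 75.3 TPM in tumor), none of Slc2a3, Hk3, Pfkfb4 and Slc16a3 was below the lung range in both tumor libraries. Ptprc itself had the lowest difference of the 20 genes (-4.56). Pfkfb4 per Ptprc was at 0.2501, 0.252 and 0.291 in lung and 0.495 and 0.270 in tumor, and the groups overlap. The other 3 lay above every lung library in both tumor libraries. Slc2a3 per Ptprc was at 0.297, 0.346 and 0.342 in lung and 0.842 and 0.665 in tumor, Hk3 per Ptprc at 0.105, 0.140 and 0.122 and 0.320 and 0.258, and Slc16a3 per Ptprc at 1.18, 1.35 and 0.907 and 2.47 and 1.57. Taldo1 per Ptprc was at 0.709, 0.736 and 0.551 in lung and 5.39 and 1.60 in tumor, and Pgd per Ptprc at 0.465, 0.367 and 0.395 and 4.06 and 1.20.

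The 2 tumor libraries also differed from each other. Pan-leukocyte genes were higher in tumor 3 than in tumor 2 for 19 of 20 genes, by a median of 3.01-fold, and epithelial genes by a median of 1.03-fold. Slc2a3 was 3.22-fold, Hk3 3.28-fold, Pfkfb3 3.004-fold, Slc16a3 2.60-fold and Pfkfb4 2.22-fold higher in tumor 3. The pentose phosphate genes were nearly level, with ratios of 1.16 for G6pdx, 1.20 for Pgd, 1.03 for Tkt and 1.21 for Taldo1. Among the 16 genes that rose in tumor the median ratio was 0.874, with 0.677 for Slc16a1 at the low end and 1.55 for Hk2 at the high end. These are ratios of 1 library to another, with no replicate check.

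**Figure D5:**
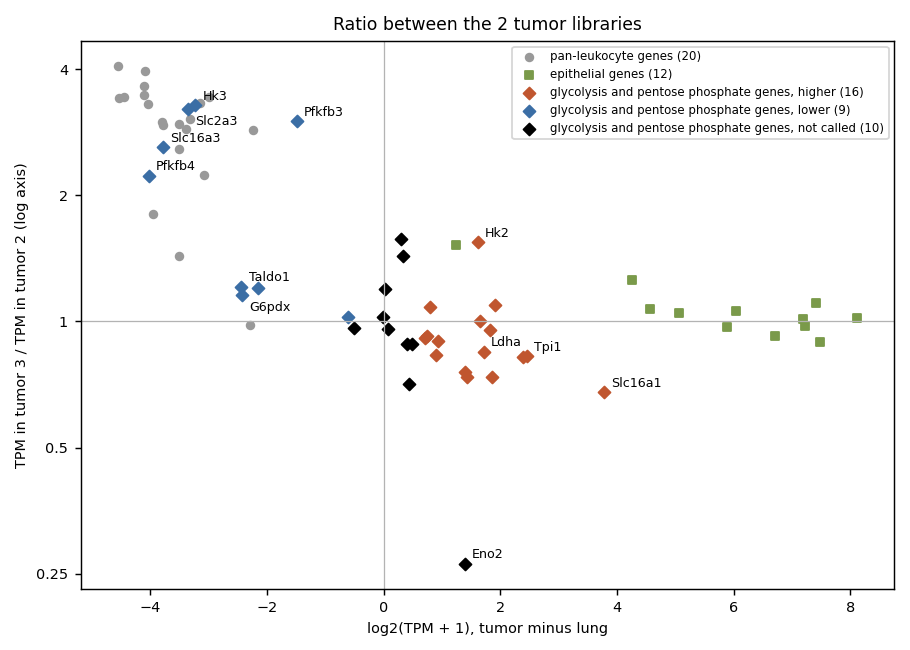
TPM in tumor 3 divided by TPM in tumor 2 (log axis) against the tumor minus lung difference in log2(TPM + 1), for the 35 tested genes (diamonds), 20 pan-leukocyte genes (grey circles) and 12 epithelial genes (green squares). Slc2a3, Hk3, Slc16a3 and Pfkfb4 sit among the pan-leukocyte genes, while G6pdx and Taldo1 have ratios near 1.2.

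A wider list held 62 other genes of sugar metabolism. Of 37 tested, 11 were higher and 10 lower (median difference -0.03), or 56.8% called, near the 58.6% of all tested genes. Under the pan-leukocyte scaling 32 were higher and 1 lower. Of all 16387 tested genes, 11953 were higher and 312 lower under that scaling. Of the enzymes of glycogen breakdown, Pygl, the glycogen phosphorylase of liver and leukocytes, fell from 644, 742 and 701 TPM to 15.5 and 53.7 TPM (-4.53 ± 0.52, adjusted p = 0.00216), while Pygb, the brain form, rose from 13.0, 9.56 and 9.64 TPM to 29.96 and 27.9 TPM (1.36 ± 0.20, adjusted p = 0.00389). Around pyruvate dehydrogenase, Dlat, its E2 subunit, rose from 6.52, 5.85 and 7.36 TPM to 27.8 and 24.3 TPM, and Pdp1, the phosphatase that reactivates it, from 1.97, 0.869 and 1.18 TPM to 13.9 and 12.4 TPM (adjusted p = 0.00161 and adjusted p = 0.00176). Mpc1, a subunit of the mitochondrial pyruvate carrier, fell from 55.7, 97.2 and 56.8 TPM to 15.7 and 15.1 TPM (-2.06 ± 0.29, adjusted p = 0.00369). Among rare glycolytic paralogs Pgam2, the muscle phosphoglycerate mutase, fell from a mean of 12.7 to 2.06 TPM (adjusted p = 0.00132) and Ldhd, which acts on D-lactate, rose from 0.310 to 3.92 TPM (adjusted p = 0.00364). Gpd1l, a glycerol-3-phosphate dehydrogenase relative, fell from 23.4 to 6.57 TPM (adjusted p = 0.00357).

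Among 23 tested genes known to regulate sugar use or to respond to low oxygen, 10 were higher and 7 lower, beside 31.6% and 27.0% of all tested genes. With the library number as a block 6 were higher, beside 3662 of all 16387 tested genes. Among the 10 tested hypoxia-response genes outside glycolysis, 7 rose (31.6% of all tested genes were higher). P4ha2, a collagen prolyl hydroxylase subunit, rose from 2.65, 2.53 and 1.80 TPM to 32.5 and 27.8 TPM (3.23 ± 0.21, adjusted p = 0.00101). Ero1l, an oxidase of the endoplasmic reticulum, rose from 39.8, 57.5 and 47.8 TPM to 172 and 227 TPM (2.02 ± 0.23, adjusted p = 0.00213), and Vegfa, the vascular growth factor, from 33.1, 31.8 and 39.3 TPM to 105 and 100.5 TPM (1.55 ± 0.16, adjusted p = 0.0018). Of the 7 oxygen-sensing genes 4 fell and 2 rose, and of 6 tested genes of sugar sensing and growth 3 fell and 1 rose (27.0% of all tested genes were lower). Epas1, which encodes HIF-2 alpha and is abundant in endothelium, fell from 193, 87.2 and 140.1 TPM to 5.33 and 8.65 TPM (-4.10 ± 0.39, adjusted p = 0.00163), and the 8 endothelial genes summed to 328, 172 and 232 TPM in lung and 17.98 and 32.2 TPM in tumor. Txnip, which restrains glucose uptake, fell from 467, 584 and 513 TPM to 29.9 and 65.2 TPM (-3.53 ± 0.35, adjusted p = 0.00172), and Mlxip, the glucose-sensing factor MondoA that drives it, from 49.6, 55.1 and 77.7 TPM to 7.05 and 11.2 TPM (-2.61 ± 0.29, adjusted p = 0.00207). Under the pan-leukocyte scaling 20 of the 23 genes were higher, beside 11953 of all 16387 tested genes. Hif1a, named here after its values were seen, was at 75.6, 89.5 and 109 TPM in lung and 49.1 and 58.3 TPM in tumor (-0.74 ± 0.21, adjusted p = 0.0301).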

How the data were processed

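The authors ran Salmon 0.9.1 with GENCODE mouse M24 transcripts, per the labels' design text, and deposited TPM for each gene symbol. Salmon assigns ambiguous reads by likelihood, which leaves genes with near-identical copies uncertain, and TPM is a share, so a rise of some transcripts lowers the rest. The deposited p-value and its false discovery rate are the authors' own and were used only as values of their table.

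Of 55276 rows, 26 with spreadsheet dates for symbols (at most 0.0826% of a library's TPM) were left out. Tumor and lung were compared with limma 3.58.1 in R 4.3.3 (empirical Bayes with intensity trend, two-sided) on log2(TPM + 1) of the 16387 genes whose mean was 1 TPM or more, with p-values adjusted by Benjamini-Hochberg over all of them. This scale understates changes of low genes. A fold given for a gene is a ratio of 2 mean TPM values. The 1.5-fold limit of a call was instead set on the difference in log2(TPM + 1), at log2(1.5). Pan-leukocyte scaling multiplied each library so that the mean log2 TPM of 20 leukocyte genes was equal. Median-ratio scaling, removal of mitochondrially encoded genes, other pseudocounts, filters and fold limits, a robust fit, a fit without trend, a block and leaving out each library were tried. Shares were compared by exact permutation.

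The 36 genes and all lists were chosen with earlier results of these data known. All 36 are described. Of other lists the text names up to 12 and up to 6 called genes with the smallest p, isoenzymes holding at least 10% of a step, and fixed markers, and the muscle genes, Hif1a and genes completing a count were added after their values were seen. Pseudogene copies were matched with BLAST at 90% identity over 80% of their length, a step added after the data were seen. Replicate numbers come from the sample titles. Depth is unknown, so no counting error can be given. Other lists, of macrophage, alveolar and airway, B cell, T cell, erythroid and neuron genes, gave sums in lung and tumor of 741 and 786, 279 and 4.27, 189 and 4.10, 5.88 and 0.777, 678 and 226, and 1.50 and 11.2 TPM.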

Additional observations from a re-analysis of the deposited data

How the results depend on the processing

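Pseudocounts of 0.1 and 0.01, a robust fit and the added copies changed no call among the 35 genes. Leaving out 1 library gave 10 to 14 higher and 7 to 9 lower genes of the 35, 6285 to 8848 calls among all genes (9609 in all 5 libraries), 7 to 10 higher and 8 to 11 lower genes on the wider list, and 7 to 9 higher and 5 to 6 lower regulators. Pan-leukocyte scaling gave 29 higher and 0 lower of the 35 (0 lower also at an unadjusted p under 0.05, limma), 32 and 1 on the wider list, and 20 and 0 among regulators (again 0 at an unadjusted p). This scaling made 11953 of all 16387 tested genes higher and 312 lower. Under it the differences of Slc2a3 (0.28), Hk3 (0.32), Gpi1 (3.17), Pfkfb3 (2.13), Pdk2 (2.98), G6pdx (1.24), Pgd (1.52), Tkt (3.06) and Taldo1 (1.24) turned positive. Median-ratio scaling shifted the all-gene median difference to -0.12 (0.018 on deposited TPM) and turned Slc2a1 (-0.16) and Ldhb (-0.0716), and removing mitochondrially encoded genes moved it to 0.13 and turned Pdk2 (0.10). Small differences also changed sign with 1 library left out: Slc2a1 (-0.11 to 0.15; -0.0214 without lung replicate 3 and -0.11 without tumor replicate 3), Pfkp (-0.0286 to 0.62; the lowest without tumor replicate 3), Ldhb (-0.0240 to 0.13; the lowest without lung replicate 3) and Pdk2 (-0.0781 to 0.10; 0.10 without lung replicate 3 and 0.00819 without tumor replicate 2). With the library number as a replicate block, 12 of the 35 genes were higher, 7 lower and 6 regulators higher, and 7111 genes passed in all. No tumor library is numbered 1, so lung 1 adds nothing to a difference in that fit. Its differences equal those without lung replicate 1 (-3.48 for Slc2a3 in both), so the block is not a separate check from leaving that library out. The library numbers were not shown to pair libraries. Deviations of same-numbered libraries correlated at 0.00343 and 0.0833, and those of lung 1 and tumor 2 at 0.082. With 2 tumor libraries the deviations of one mirror those of the other, so these values cannot decide whether the numbers pair libraries. The share of Slc2a3 changed by -34.2 points with further transporters counted. The summed TPM of the 36 genes was 2149 higher in tumor, and 1483 to 2814 higher with 1 library left out. The causes of these shifts were not tested, except that counting more transporters enlarges the denominator.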

Other observations

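Among the 36 genes, 0 had a false discovery rate under 0.05 in the authors' deposited table, and 17 had an unadjusted p under 0.05 there. The share of all rows at that unadjusted limit was not taken, so the 17 cannot be set beside a background. Limma called 25 of the 35 tested genes, beside 58.6% of all tested genes. Over all 34956 rows with a value in the authors' deposited table, 223 (0.638%) had a false discovery rate under 0.05.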
